A study of Mus musculus with 2 samples.

Results

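The genes described here are 10 myosin genes: the heavy chains Myh9, Myo1e, Myo1f, Myo5a, Myo9b, Myo10 and Myo18b and the light chains Myl6, Myl12a and Myl12b. They were taken by symbol from the tables of 8 mice, in which 32285 genes were counted, and all 10 were found. The data were single-cell gene expression counts of viable CD45+ cells sorted from the brains of 12-week-old mice. The 4 control mice were Cre-negative Arpc4 fl/fl littermates, and the 4 Arpc4ΔCx3cr1 mice (KO) carried Tg(Cx3cr1-Cre) with the same Arpc4 fl/fl alleles. Both groups thus carried the floxed gene, which encodes a subunit of the Arp2/3 complex, and the controls carried no Cre. The Cre is driven by Cx3cr1 regulatory sequence, which is active in brain myeloid cells from the onset of their development and is not restricted to microglia. Cells of each mouse were tagged and then pooled into 1 library, so genotype was not split over libraries.

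Myosins are motors that pull on actin filaments with the energy of ATP. A class II myosin is built of 2 heavy chains with essential and regulatory light chains, and phosphorylation of the regulatory chain lets it assemble into contractile filaments. The other classes do not form such filaments: class I myosins link membrane to actin, class V walks with cargo, class IX carries a domain that switches off a small GTPase, and class X gathers at the tips of filopodia. The Arp2/3 complex starts new actin branches on existing filaments, the network on which several of these motors work.

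Each mouse gave between 1257 and 2831 cells and between 5251527 and 12878691 unique molecules (UMIs) of genes, and no cell barcode was shared between mice. Cells were clustered without the 10 genes and named from marker genes, which gave 996 to 2382 microglia-like cells per mouse, and smaller classes of border-associated macrophage-like (CAM-like), monocyte-like and T cell-like cells. All 14 microglia markers were detected in the microglia-like cells of every mouse, and their summed level was 32523 to 33117 counts per 1000000 UMIs (CPM) in control and 20274 to 22596 CPM in KO mice. The summed CAM markers stood at 166 to 185 CPM in control and 66.6 to 156 CPM in KO microglia-like cells, B cell markers at 241 to 255 and 73.6 to 143 CPM, brain tissue markers at 51.3 to 61.8 and 42.5 to 47.2 CPM, dendritic cell markers at 12.4 to 15.4 and 18.3 to 25.1 CPM, and NK cell markers at 0.423 to 1.67 and 2.52 to 4.04 CPM. The part of these markers in the differences below was not tested. KO mouse 1 held Xist at 1384 CPM, against 3.66 to 13.3 CPM in the other 7 mice, and Ddx3y at 3.64 CPM. The study's methods left 1 female KO mouse, which they do not name, out of the downstream analysis, whereas the KO values here include KO mouse 1 unless stated. Without it the same 7 members were called in microglia-like cells, and results that moved are also given without it. Arpc4 itself was lower in KO microglia-like cells, at 138 to 153 CPM against 216 to 237 CPM in controls (log2 fold change -0.63 ± 0.054 SE, edgeR adjusted p = 5.68e-06), and droplets without a cell held it at 229 CPM. The counts come from the 3′ ends of transcripts and the deleted exons are not given in the sources used here, so the remaining Arpc4 level does not measure how complete the deletion was.

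The 10 genes lie on 6 chromosomes of the mouse genome build GRCm38 (mm10), with positions from GENCODE vM21. A pair of them are neighbours: Myl12b (chr17:70973133-70990890) and Myl12a (chr17:70993656-71002878) follow each other on the minus strand, encode near-identical regulatory light chains and could share reads. An annotated gene that runs through both was not among the counted genes. Myl6 spans 3.29 kb (chr10:128490860-128494145), and the heavy chain genes span much more, from 52.1 kb for Myo1f (chr17:33555707-33607764) to 207 kb for Myo18b (chr5:112688876-112896362, minus strand). Whether reads within introns were counted is not given in the sources used here, and levels are therefore not compared between genes.

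Upstream sequence from RefSeq (GRCm38.p6) was available for 9 of the 10 genes, as 11 start sites, and not for Myo18b. In the 250 bases before each start, searched on both strands, the CArG box bound by Srf, the actin-sensitive transcription factor of muscle and cytoskeletal genes, was present for 2 of the 9 genes, Myl6 and Myo1e, and in 1.47% of all 32851 start sites. The letters GGGCGG were found for 8 of the 9 genes and in 32.7% of all start sites, and the letters CCAAT for 4 of the 9 and in 33.8%. The 4 stretches below are shown because their genes include 3 that rose, Myo1e, Myo10 and Myo1f, and 1 that was not called, Myh9, and because they hold no annotated exon. Matches to the 3 motifs are in capitals, on either strand, and the sequence runs 5′ to 3′ on the strand of the gene. They are Myo1e at chr9:70207100-70207349 (plus), Myo10 at chr15:25622300-25622524 (plus), Myo1f at chr17:33555457-33555706 (plus) and Myh9 at chr15:77842176-77842425 (minus).
Myo1e: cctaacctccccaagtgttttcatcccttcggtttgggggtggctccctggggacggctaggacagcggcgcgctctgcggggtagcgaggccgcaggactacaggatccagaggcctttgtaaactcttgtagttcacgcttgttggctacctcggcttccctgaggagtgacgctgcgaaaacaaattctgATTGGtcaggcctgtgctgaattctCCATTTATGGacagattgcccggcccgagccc
Myo10: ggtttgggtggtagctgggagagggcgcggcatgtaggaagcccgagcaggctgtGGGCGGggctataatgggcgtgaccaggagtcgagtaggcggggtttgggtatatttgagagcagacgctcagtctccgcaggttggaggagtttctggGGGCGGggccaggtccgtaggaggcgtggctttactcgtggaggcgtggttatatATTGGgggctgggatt
Myo1f: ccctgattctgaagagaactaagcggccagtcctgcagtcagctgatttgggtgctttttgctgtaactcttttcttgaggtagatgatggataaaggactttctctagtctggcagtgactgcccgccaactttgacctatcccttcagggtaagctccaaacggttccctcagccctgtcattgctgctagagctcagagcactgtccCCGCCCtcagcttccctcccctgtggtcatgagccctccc
Myh9: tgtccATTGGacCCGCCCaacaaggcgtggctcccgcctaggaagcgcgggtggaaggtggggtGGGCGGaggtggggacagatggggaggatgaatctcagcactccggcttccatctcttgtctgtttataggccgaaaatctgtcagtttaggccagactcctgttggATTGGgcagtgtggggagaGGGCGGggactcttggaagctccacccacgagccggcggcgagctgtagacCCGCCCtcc
The CArG box of Myo1e ended 23 bases before its start. Myh9 held 4 matches to GGGCGG and 2 to CCAAT, Myo10 held 2 and 1, and Myo1f held 1 match to GGGCGG. A match describes letters only and was not tied to any factor in these cells.

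The main question for these genes was whether loss of Arpc4 altered their transcript level in microglia. In microglia-like cells, 7 of the 10 differed between genotypes: Myl6, Myo1e, Myo1f, Myo5a, Myo9b and Myo10 rose and Myo18b fell in KO mice, while Myh9, Myl12a and Myl12b did not pass the test. These tests used edgeR's quasi-likelihood fit on UMI sums per mouse, with an adjusted p under 0.05 over all genes. Across all 12729 genes tested, 5861 or 46.0% were called, with 22.8% higher and 23.2% lower in KO, so that a call by itself was common in this comparison. In 44.2% of all genes tested the values of the 2 groups of mice did not overlap, and the same held for 7 of the 10 myosin genes. The median log2 fold change was 0.48 over the 10 genes and -0.01 over all genes tested. The 10 genes were chosen with earlier results of these data known, so this contrast does not describe myosins in general. The other tested heavy chains outside class II had a median of -0.22. Scaling by library totals in place of the trimmed mean (TMM) moved the median of all genes to -0.11 and the split of calls from 2908 higher and 2953 lower to 2238 higher and 4262 lower. The 6 rises and the fall of Myo18b were also called under that scaling.

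**Figure D1:**
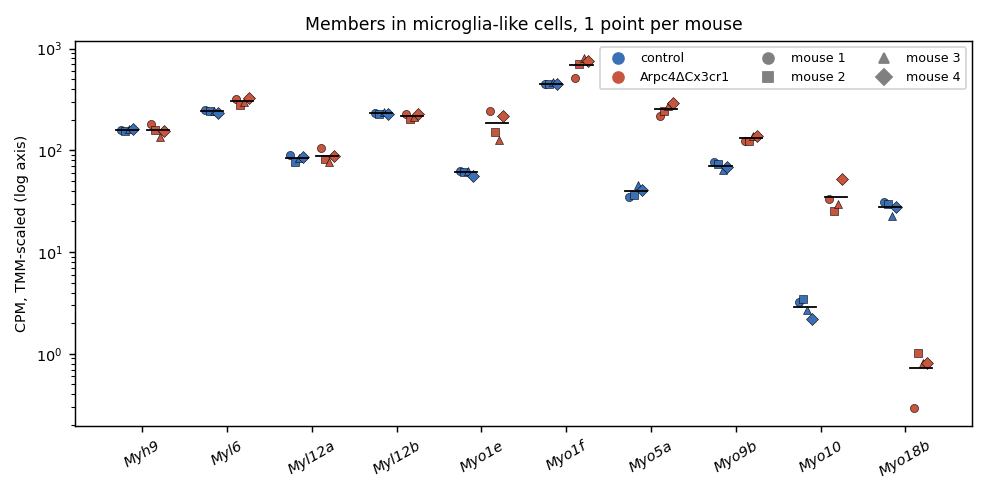
TMM-scaled CPM (log axis) of the 10 genes in microglia-like cells, with 1 point per mouse, blue for control and red for Arpc4ΔCx3cr1, the shape giving the number of the mouse and the bar the mean of 4 mice. The 2 colours stand apart for Myl6, Myo1e, Myo1f, Myo5a, Myo9b, Myo10 and Myo18b and overlap for Myh9, Myl12a and Myl12b.

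Of the 4 subunits of nonmuscle myosin II, 1 light chain passed the test, and the heavy chain and both regulatory light chains did not. Myh9, the heavy chain of nonmuscle myosin IIA, stood at 157, 156, 163 and 163 CPM in the control mice and at 183, 159, 136 and 154 CPM in KO mice 1 to 4. The control values lay inside the range of the KO values (log2 fold change -0.02 ± 0.080 SE, edgeR adjusted p = 0.857). The spread in KO mice was 19.2 CPM (SD, n = 4) against 3.90 CPM in controls. Myl12a, a regulatory light chain, had means of 84.3 ± 5.53 CPM in control and 88.2 ± 12.8 CPM in KO mice (SD, n = 4 each), and Myl12b, its neighbour and near copy, had 232 ± 5.61 and 218 ± 12.5 CPM. Neither passed the test (edgeR adjusted p = 0.586 and 0.202). Under library totals Myl12b was called lower (log2 fold change -0.20, edgeR adjusted p = 0.00841) and Myl12a changed sign to -0.04.

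Myl6, the essential light chain of nonmuscle and smooth muscle myosin II, was the light chain that rose. Control mice had 251, 245, 241 and 234 CPM. KO mice had 323, 279, 300 and 325 CPM. Every KO mouse was above every control mouse, and the difference was small (log2 fold change 0.34 ± 0.060 SE, edgeR adjusted p = 9.62e-04). When all deposited cells of a mouse were summed in place of the microglia-like cells, the call for Myl6 was lost (log2 fold change 0.25, edgeR adjusted p = 0.152).

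Reads of Myl12a made up 26.6% ± 1.20 of the joint UMIs of Myl12a and Myl12b in control and 28.7% ± 2.31 in KO mice (SD, n = 4 each). By mouse, the share was 27.7, 25.1, 26.2 and 27.5% in controls, beside 31.7, 29.1, 26.3 and 27.8% in KO. The groups overlapped, and the difference of 2.10 percentage points did not pass an exact two-sided permutation test over mice (p = 0.114), in which 4 against 4 mice allow 0.0286 at the least. Without KO mouse 1 the difference was 1.09 percentage points (exact permutation p = 0.314), and without KO mouse 3 it was 2.91 points and passed (exact permutation p = 0.0286, the smallest that 4 against 3 mice allow).

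Both class I myosins rose. Myo1e, a long-tailed class I myosin of endocytic sites and podosomes, was at 62.3, 61.8, 62.9 and 56.4 CPM in control mice and at 243, 151, 126 and 219 CPM in KO mice (log2 fold change 1.60 ± 0.18 SE, edgeR adjusted p = 4.01e-05). All KO mice were above all controls and were more spread, with an SD of 55.1 CPM against 2.99 CPM. Myo1f, the class I myosin found mainly in immune cells, was at 447, 446, 465 and 453 CPM in control mice and at 515, 702, 805 and 763 CPM in KO mice. The log2 fold change of Myo1f was 0.62 ± 0.12 SE (edgeR adjusted p = 0.00121), and KO mouse 1 was the KO mouse closest to the controls. Without that mouse the log2 fold change of Myo1f was 0.74 and that of Myo1e 1.45.

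Myo5a and Myo10, which move along actin tracks and bundles, had the largest rises of the 10. Myo5a, the processive carrier of vesicles and organelles, was at 34.7, 36.6, 46.0 and 40.9 CPM in control mice. In KO mice it was at 216, 245, 270 and 295 CPM. The lowest KO value lay far above the highest control value (log2 fold change 2.69 ± 0.11 SE, edgeR adjusted p = 7.54e-08). Myo10, the motor of filopodial tips, was at 3.26, 3.47, 2.68 and 2.22 CPM in control mice, from 14 to 35 UMIs per mouse, and at 33.0, 25.6, 30.02 and 52.1 CPM in KO mice, from 252 to 583 UMIs. The log2 fold change of Myo10 was 3.61 ± 0.26 SE (edgeR adjusted p = 1.62e-06). Subtracting 10% or 25% of each sum in the proportions of droplets without a cell moved it to 4.23 and 6.38 for Myo10 and to 2.95 and 3.48 for Myo5a, so the size of both rises depends on how much free RNA is assumed. The control level of Myo10 was below its level of 10.8 CPM in droplets without a cell, and the control level of Myo5a was also below the 74.6 CPM of those droplets, whose RNA was shared by both genotypes.

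Myo9b, a class IX motor with a GTPase-activating domain, rose in all KO mice. Its level was 77.2, 73.9, 63.7 and 68.7 CPM in control and 124, 124, 140 and 140 CPM in KO mice (log2 fold change 0.90 ± 0.073 SE, edgeR adjusted p = 3.54e-06). The groups did not overlap, with SDs of 5.91 CPM in control and 9.06 CPM in KO mice.

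Myo18b, a class XVIII myosin best known from the sarcomeres of striated muscle, was the member that fell. Control mice had 31.2, 29.7, 22.4 and 27.5 CPM, from 134, 300, 209 and 273 UMIs. KO mice had 0.292, 1.02, 0.811 and 0.804 CPM, from 3, 10, 9 and 9 UMIs. The log2 fold change was -5.21 ± 0.22 SE (edgeR adjusted p = 7.08e-08) and was -4.95 without KO mouse 1. The KO level lay below the 9.64 CPM of Myo18b in droplets without a cell. When 10% of each sum was subtracted in proportion to those droplets, the fitted log2 fold change went to -10.98, a value that depends on the prior count of the fit.

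**Figure D2:**
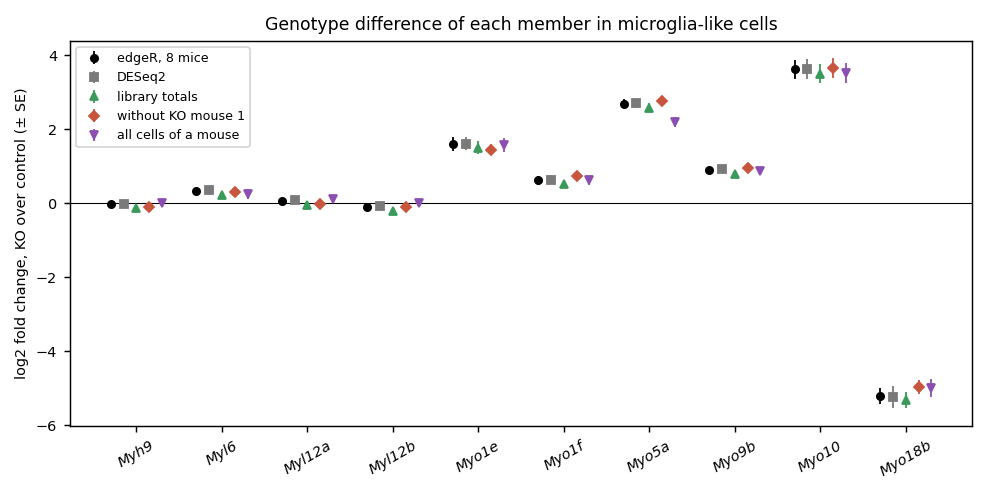
log2 fold change of KO over control in microglia-like cells (± SE) for each gene, in edgeR with 8 mice (black), DESeq2 (grey), edgeR scaled by library totals (green), edgeR without KO mouse 1 (red) and edgeR on all cells of a mouse (purple). The values of each of the 7 called genes lie on the same side of 0 in all 5 fits, from about -5 for Myo18b to above 3 for Myo10.

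A sum over cells does not tell more expressing cells from more RNA per cell. At 2000 UMIs most of these genes are expected below 1 UMI per cell, so the share of detecting cells largely follows the mean. That share therefore does not separate these cases either. The share of cells with at least 1 UMI is given after thinning every cell to 2000 UMIs. Cells with fewer UMIs were left out, 289 in the control and 328 in the KO mice. Myo5a was detected in 5.88% ± 1.22 of control and 34.5% ± 3.73 of KO microglia-like cells (SD over 4 mice each), and in 10.9% and 55.4% without thinning. Myo1e was detected in 9.25% ± 0.350 and 20.6% ± 5.12, Myo9b in 12.6% ± 1.34 and 20.2% ± 1.09, and Myo1f in 54.9% ± 0.797 and 66.2% ± 7.19. The ranges over mice overlapped for Myo1f, with KO mouse values from 55.5% and control values up to 55.6%. Myo10 was detected in 0.537% ± 0.257 of control and 4.82% ± 1.31 of KO cells, and Myo18b in 4.52% ± 0.879 and 0.0910% ± 0.0740. In T cell-like cells, taken as a class outside the microglial lineage, the thinned shares in control mice were 6.43% ± 3.15 for Myo5a, 11.5% ± 5.79 for Myo1e, 1.23% ± 1.44 for Myo18b and 0 for Myo10. The control microglia-like shares of Myo5a and Myo1e were thus no higher than in that class. T cell-like cells may express these genes themselves and also held microglial RNA. This comparison therefore sets no background level and cannot tell the control shares from background or from expression. The median depth was 3835 UMIs in control and 4284 in KO microglia-like cells, and 4981 and 4050 UMIs in T cell-like cells.

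Microglia-like cells were split again into 12 clusters, still without the 10 genes, to see whether the differences ran through all of them. Clusters 1, 2, 3 and 7 held between 1.77% and 3.38% KO cells, and the other 8 held at least 80.4% KO cells, so that few clusters had both genotypes in number. One of the latter, cluster 4, led by Xist and Fn1, was 97.4% cells of KO mouse 1. Within the mainly control clusters the genes varied too: Myo18b was at 41.0 ± 4.77 CPM in cluster 1 and at 4.49 ± 1.48 CPM in cluster 7, and Myo1f at 532 ± 22.3 and 205 ± 9.29 CPM (SD over 4 control mice). No test was made between clusters, because they were formed from the same cells.

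Among the KO clusters, Myo1e and Myo10 peaked in cluster 10, which was led by the chemokine genes Ccl4 and Ccl3. Myo10 was there at 154 ± 34.4 CPM in KO cells, against a mean of at most 26.6 CPM in the KO cells of any other cluster. Myo1e was at 722 ± 241 CPM in KO cells of cluster 10 and at 258 ± 104 CPM in its control cells, from 138 UMIs. Myo10 in those control cells rested on 2 UMIs. The lowest levels among the mainly KO clusters were in cluster 9, led by Cst7, Ifi27l2a and Apoe, with Myo1e at 32.7 ± 12.6 CPM, Myo1f at 165 ± 52.7 CPM and Myo5a at 52.0 ± 28.1 CPM, while Myl6 was there at 547 ± 114 CPM. Among KO cells Myo5a was highest in cluster 5, led by Ms4a7 and the haemoglobin genes Hbb-bs and Hba-a1, at 366 ± 76.9 CPM (SD over 4 KO mice). CAM-like cells held Myo5a at a like level (399 ± 51.7 CPM in control mice), and Myo18b had no UMI in cluster 5 in either genotype. At a clustering resolution of 0.4, a cluster led by Pf4, Hbb-bs, Mrc1, F13a1 and Ms4a7 was named CAM-like and held 1715 cells, against 409 CAM-like cells at 0.8, so the border between the classes depends on the resolution there. With the microglia-like cells of that resolution, the log2 fold change of Myo5a was 2.67.

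Control cells in cluster 0, a cluster that was 97.0% KO cells and led by Ctnna3 and Tafa1, overlapped over mice with the KO cells beside them for 5 of the 6 heavy chains that differ between genotypes, and not for Myo18b. Myo5a was at 239 ± 27.6 CPM in the control and 281 ± 29.3 CPM in the KO cells of cluster 0, Myo10 at 22.7 ± 12.98 and 23.6 ± 14.4 CPM, and Myo1e at 168 ± 66.2 and 200 ± 111 CPM (SD over 4 mice each). Myo18b was at 21.3 ± 10.0 CPM in the control cells and at 1.59 ± 0.593 CPM in the KO cells. In the opposite case, the KO cells that fell into control cluster 1, from 2 mice, had no UMI of Myo18b and had Myo5a at 93.2 ± 16.4 CPM against 33.5 ± 5.14 CPM in the control cells. The other mainly KO clusters with control cells of at least 2 mice were split in this. Myo5a overlapped between genotypes in cluster 5, with 288 to 489 CPM in control cells and 256 to 426 CPM in KO cells. It also overlapped in cluster 11, with 89.0 to 174 CPM in control and 106 to 369 CPM in KO cells. Myo5a did not overlap between genotypes in cluster 8, led by Cxcl10, with 37.5 to 75.2 CPM in control cells of 2 mice and 192 to 243 CPM in KO cells, nor in cluster 10, with 84.5 to 185 CPM in control and 196 to 382 CPM in KO cells. Myo1e and Myo10 did not overlap in cluster 10 either. These values rest on few cells, with 234 UMIs of Myo5a and 22 of Myo18b for the control cells of cluster 0, and were not tested. In the control mice 98.9 to 99.6% of all cells were led by their own tag. Whether wrongly assigned cells or doublets were among the control cells of these clusters was not tested.

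**Figure D3:**
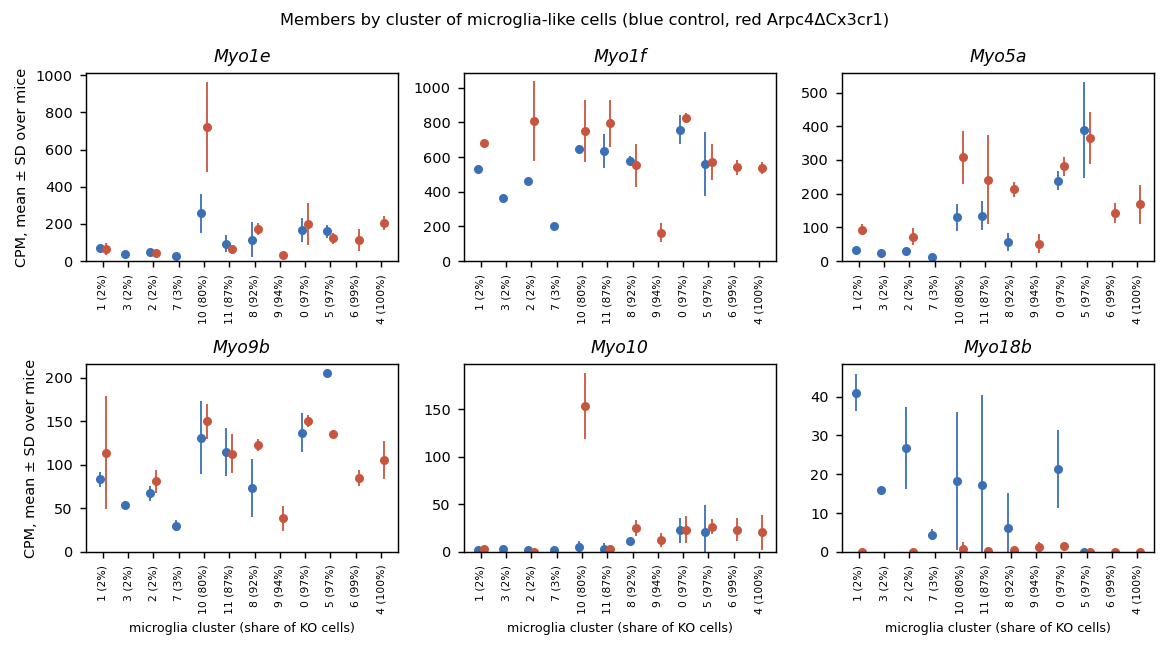
CPM (mean ± SD over mice with at least 10 cells, linear axes from 0, error bars cut there) of 6 heavy chains in clusters of microglia-like cells, ordered by the share of KO cells given in brackets, blue for control and red for Arpc4ΔCx3cr1. Myo1e and Myo10 peak in the KO cells of cluster 10, and blue points of Myo18b are above the red ones wherever at least 2 mice of both genotypes are shown, except in cluster 5, where both are at 0.

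The same genes were then followed in the other sorted cells, with levels as CPM of all UMIs. Among the 4 larger named classes, the order of control levels of Myo5a was CAM-like (399 ± 51.7 CPM), monocyte-like (79.9 ± 16.0 CPM), microglia-like (41.0 ± 5.34 CPM) and T cell-like cells (30.1 ± 8.03 CPM, SD over 4 mice each), and the last 2 overlapped. In KO mice microglia-like cells reached 247 ± 31.7 CPM of Myo5a, inside the range of KO CAM-like cells (195 to 574 CPM). Myl6 was highest in monocyte-like cells, at 1229 ± 213 CPM in control mice, followed by T cell-like (825 ± 139 CPM), CAM-like (550 ± 66.4 CPM) and microglia-like cells (251 ± 5.37 CPM), and monocyte-like and T cell-like values did not overlap. Myo1f had its highest control level of these classes in microglia-like cells (469 ± 10.7 CPM), followed without overlap by CAM-like cells (363 ± 52.5 CPM). Myo10 and Myo18b rested on few UMIs in the smaller classes: CAM-like cells held 2 and 4 UMIs of them in all control mice together, monocyte-like cells 1 and 1, and T cell-like cells 0 and 8. At this depth the control level of Myo10 in CAM-like cells (2.22 ± 4.44 CPM) could not be told from that in microglia-like cells (3.01 ± 0.573 CPM).

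None of the tested members was called between genotypes in CAM-like or monocyte-like cells. In CAM-like cells 7 of the 10 genes had enough counts to be tested, and 1.17% of all 3333 genes tested were called. At an unadjusted p under 0.05 no member passed there either, and Myh9 came closest (log2 fold change -0.51 ± 0.26 SE, edgeR adjusted p = 0.501). In monocyte-like cells 7 members were tested as well, beside 8.25% called of 3129 genes. Myo5a came closest there, with a log2 fold change of -0.68 ± 0.26 SE (edgeR adjusted p = 0.146), a direction opposite to that in microglia-like cells, and was the 1 member under 0.05 before adjustment. DESeq2 called no member in either class. CAM-like cells numbered 21 to 112 and monocyte-like cells 14 to 114 per mouse, so these tests were far less precise than that of microglia-like cells, and misses there do not show that the levels were alike.

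In T cell-like cells, 1 of the 8 tested members was called, Myo5a, beside 4.04% of all 4183 genes tested. It was at 29.2, 38.8, 19.6 and 32.7 CPM in control and 88.3, 47.0, 96.5 and 115 CPM in KO mice, from 4 to 9 and 7 to 31 UMIs per mouse (log2 fold change 1.65 ± 0.34 SE, edgeR adjusted p = 0.00380). The groups did not overlap, but DESeq2 gave an adjusted p of 0.0503, and subtracting 10% of each sum as the profile of the empty droplets left Myo5a with too few counts to be tested. The summed microglia markers stood at 10529 to 12049 CPM in control and 6859 to 8639 CPM in KO T cell-like cells, and at 26681 CPM in droplets without a cell, so microglial RNA was present in this class, and its part in the Myo5a value was not tested. Myo18b had 8 UMIs in the control and 0 in the KO T cell-like cells, below what the test admits. Myo10 had 0 and 3 UMIs there. Myo1f (log2 fold change 0.45 ± 0.21 SE, edgeR adjusted p = 0.318) and Myo1e (0.78 ± 0.42 SE, edgeR adjusted p = 0.407) did not pass, and Myo1e was at -0.05 without KO mouse 1, the mouse with 227 CPM of it in these cells.

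Whether the genotype difference itself was unlike in the 2 classes was tested with an interaction term over the sums of microglia-like and T cell-like cells. None of the 10 members passed with edgeR, DESeq2 or edgeR blocked on mouse, beside 2.63% called of 11366 genes. The excess in microglia-like cells was 0.98 ± 0.40 (log2, SE) for Myo5a (edgeR adjusted p = 0.289), 0.78 ± 0.56 for Myo1e and 0.54 ± 0.28 for Myo9b. At an unadjusted p under 0.05, Myo5a passed in that fit, and Myo1e and Myo5a with the mouse as a block. For Myo10 and Myo18b the term could not be estimated usefully, because 1 genotype had no UMI in T cell-like cells. The T cell-like cells also held microglial RNA, with summed microglia markers of 11244 ± 744 CPM in control and 7548 ± 814 CPM in KO mice (SD). RNA carried over from microglia makes the 2 classes more alike, and its part in the term was not tested. The term therefore cannot tell whether the differences of the members were particular to microglia-like cells.

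**Figure D4:**
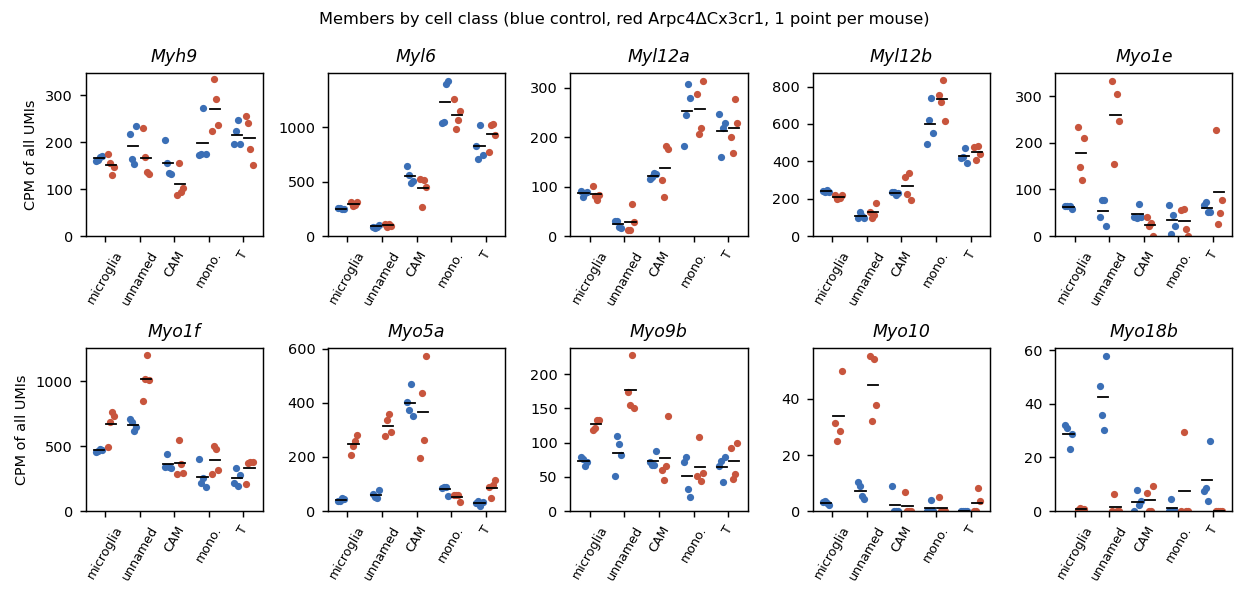
CPM of all UMIs (linear axes from 0) of the 10 genes in microglia-like cells, in 2 low-depth clusters left unnamed, and in CAM-like, monocyte-like (mono.) and T cell-like (T) cells, with 1 point per mouse and bars at the means. Myo5a is high in CAM-like cells of both genotypes, and Myo18b is high in control microglia-like and unnamed cells.

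A pair of clusters of 1004 and 502 cells, with medians of 1201 and 1228 UMIs, was left unnamed, and the heavy chains called above differed in the same direction there. Myo5a was at 59.7 ± 14.03 CPM in control and 316 ± 37.5 CPM in KO cells, Myo1e at 53.9 ± 27.8 and 259 ± 78.2 CPM, Myo10 at 7.22 ± 2.90 and 44.9 ± 11.6 CPM, and Myo18b at 42.6 ± 12.2 and 1.62 ± 3.23 CPM (SD over 4 mice each). Light chain levels were lower in these cells than in microglia-like cells, with Myl6 at 88.2 ± 10.95 CPM in control mice. No test was made on the unnamed cells. Under the stricter cell filter, a similar cluster of 938 cells with 3.94% KO cells was named microglia-like. Another of 460 cells with 93.5% KO cells stayed unnamed. The low-depth cells that entered the microglia-like sums of that filter from this cluster were thus mostly from control mice.

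The rest of the myosin machinery was read from lists, without the 10 genes, in microglia-like cells. Of 19 other heavy chains outside class II, 10 were tested, with a median log2 fold change of -0.22. None was called higher and 3 were called lower, beside 22.8% higher and 23.2% lower over all genes. Myo1d, a short-tailed class I myosin, fell from 40.5 to 6.45 CPM (log2 fold change -2.65 ± 0.22 SE, edgeR adjusted p = 4.07e-06), and Myo6, the motor that walks toward the minus end of actin, fell slightly (-0.34 ± 0.11 SE, edgeR adjusted p = 0.0232). So class I members moved in both directions, with Myo1e and Myo1f up and Myo1d down. Of 13 further class II heavy chains 1 was tested, Myh10, at 8.26 CPM in control and 10.8 CPM in KO mice (edgeR adjusted p = 0.134).

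Of 12 further light chains and calmodulins, 6 were tested, with a median log2 fold change of 0.22 and calls in both directions. Calmodulin serves as a light chain of the class I and class V motors. Its gene Calm3 rose (log2 fold change 0.51) while Calm2 fell from 786 to 401 CPM (-0.97 ± 0.051 SE, edgeR adjusted p = 2.59e-07). Myl2, the ventricular regulatory light chain, fell from 16.8 to 8.29 CPM (-1.01 ± 0.11 SE, edgeR adjusted p = 4.17e-05).

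Kinases and small GTPase signalling genes that act on the regulatory light chain were mixed, with 5 up and 4 down of 15 tested and a median of 0.03, beside 22.8% up and 23.2% down over all genes. Rhoc (log2 fold change 1.35) and Dapk1, a death-associated kinase (1.12), rose most, and Arhgef11 (0.26), Arhgef2 (0.26) and Rock1 (0.24) rose slightly. Rhob fell from 486 to 200 CPM (-1.28 ± 0.10 SE, edgeR adjusted p = 3.60e-06), Rock2 by less (-0.49), Dapk3 (-0.29) and Arhgef1 (-0.12) least. The kinases Rock1 and Rock2 thus moved in opposite directions, though Rock1 was not called under library totals (edgeR adjusted p = 0.0600). Of 5 tested genes of the light chain phosphatase, 3 were called, beside 46.0% of all genes, with Ppp1r12b up, Ppp1r12c down and Ppp1r14b, an inhibitor of the phosphatase, down from 192 to 122 CPM (-0.66 ± 0.062 SE, edgeR adjusted p = 1.02e-05).

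Among partners of actomyosin filaments, 3 of 8 tested rose and 1 fell, with a median of 0.22, beside the same 22.8% and 23.2% over all genes. Anln, the anillin scaffold of the contractile ring, rose from 0.488 to 3.19 CPM (log2 fold change 2.88 ± 0.42 SE, edgeR adjusted p = 2.45e-04). Its control values were 0.933, 0.0991, 0.215 and 0.706 CPM, so the size of this rise rests on few UMIs. The tropomyosin Tpm4 (1.22) and the membrane linker Svil (0.42) rose, and the tropomyosin Tpm3 fell (-0.58 ± 0.056 SE, edgeR adjusted p = 1.18e-05). Of Srf and its actin-sensing partners, 3 of 5 listed were found and tested, and Mrtfa rose slightly (0.26 ± 0.057 SE, edgeR adjusted p = 0.00307), while Srf was at 3.34 CPM in control and 2.74 CPM in KO mice (edgeR adjusted p = 0.254). Of the 24 calls in all these lists, 21 were also made under library totals and 22 by DESeq2, with no change of direction.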

How the data were processed

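The deposited count tables hold UMI counts per gene and cell, for each mouse and, unfiltered, for the pool. Per the file headers the authors used Cell Ranger 7.1.0, while the submitters' processing notes name 6.1.2, with mm10. No normalization was applied to the deposited counts. Mice were mapped to genotypes by their tags, and 98.9 to 100% of the cells of each table were led by that tag. After removal of cells under 200 genes or over 20% mitochondrial UMIs, 19863 of 19864 remained. They were clustered with Seurat 5.3.0 (9993 variable genes after leaving out 7 members, 20 components, resolution 0.8) and named from marker lists. No doublet caller was run, and the tags do not mark doublets within a mouse. UMIs were summed per mouse and class, for mice with at least 10 cells, and tested with edgeR 4.0.16 (filterByExpr, TMM, glmQLFit, Benjamini-Hochberg), and with DESeq2 1.42.0 as an alternative. The edgeR fit was also run on simulated counts with few changed genes and a single fixed dispersion. In the microglia-like comparison 46.0% of genes were called, so that run does not check these calls. P-values set the genotype difference against the spread between mice, and those of edgeR and DESeq2 also draw on the spread of other genes. Empty droplets had 1 to 100 UMIs. Other alternatives were library totals, no filter, a stricter cell filter, resolution 0.4, all cells, ambient RNA and each mouse left out. The numbers of the mice did not pair them (correlations of same-numbered deviations from -0.0747 to -0.0009). All 10 members, Arpc4 and, of the other list genes, those called without overlap between groups (at most 5 each way per list) are named, except some that are not reported here, and Myh10, Ppp1r12b, Ppp1r12c and Srf were added after their values were seen. The members and lists were chosen with earlier results of these data known.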

Additional observations from a re-analysis of the deposited data

Results flagged for a closer look

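In 7 of the 72 groups of 4 mice looked at, 1 mouse stood apart from the other 3 by Dixon's test at 95%, which flags about 1 group in 20 by chance. In microglia-like cells it was control mouse 4 for Myo1e (56.4 CPM). In CAM-like cells it was control mouse 3 for Myo1e (69.0 CPM) and control mouse 2 for Myo1f (441 CPM). In monocyte-like cells it was control mouse 3 for Myh9 (272 CPM), and control mouse 4 (56.0 CPM) and KO mouse 4 (33.7 CPM) for Myo5a. In T cell-like cells it was KO mouse 1 for Myo1f (206 CPM).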

How the results depend on the processing

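The number of members called in microglia-like cells was 7 in every fit except library totals (8) and all cells (6), and each mouse left out in turn gave 7. With the replicate block, 5512 genes and 7 members were called in place of 5861 and 7, the same count of members. Myl12a turned to -0.038 (log2) under library totals and Myl12b to 0.011 with all cells. With single mice left out, Myh9 ranged from -0.095 to 0.0445 and Myl12a from -0.026 to 0.13, and the Myl12a share differed by 1.09 to 2.91 percentage points. In T cell-like cells the 1 member called became 0 with DESeq2, and 0 with 10% or 25% ambient RNA subtracted, chosen after seeing the data, under which Myo5a fell below the filter. Members called in CAM-like and monocyte-like cells and in the interaction stayed at 0 in all fits. Over all genes, the 39 called in CAM-like cells became 132 without a filter and 11 to 58 with single mice left out, the 258 in monocyte-like cells 127 to 266, the 169 in T cell-like cells 296 without a filter, 105 to 176 with single mice left out and 96 with 25% ambient RNA subtracted, and the 299 of the interaction 462 with DESeq2 and 468 without a filter. Medians over mice lay within an SD of the means, which holds for any set of values and is no check. Depth limits Myo10 and Myo18b outside microglia-like cells.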
